A study of Neurospora crassa with 6 samples.

Results

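The ribosome-protected fragments (footprints) of 1 transcript, arg-2 (NCU07732) of Neurospora crassa, were examined along its whole length. arg-2 is 1 of 3 transcripts analysed. All 2109 coordinates of its table were used, and they were divided into a leader, coordinates 1 to 340, and the rest, coordinates 341 to 2109. The footprints came from mycelium of wild-type strain FGSC2489 (24 h of growth in the dark, with no treatment named in the labels). The 2 replicates of this first ribosome profiling experiment share 1 column of counts. There is therefore no spread between replicates, and every interval below is a 95% interval that covers counting error only. The study's other 4 samples, untreated and 3-amino-1,2,4-triazole-treated cells of a second experiment, were not analysed here.

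arg-2 encodes the small subunit of the arginine-specific carbamoyl phosphate synthetase, an enzyme that provides carbamoyl phosphate for arginine synthesis. Its leader contains a short upstream open reading frame (uORF) that encodes the arginine attenuator peptide (AAP). The AAP is known for acting as a nascent chain: when arginine is plentiful, a ribosome that has made the peptide stalls at the end of the uORF, and ribosomes that follow reach the main start codon less often. Ribosome profiling reads the positions of ribosomes from the fragments of mRNA that they protect. A ribosome with a codon in its P site, where the peptidyl-tRNA sits, gives a 5′ end about 12 nt upstream of that codon, and the A site, which takes the next codon, is read with a 15-nt offset. Coordinates below are those of 5′ ends unless a P site or A site is named.

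The table holds 996 footprints at 461 of its 2109 coordinates, which is 47.2 footprints per 100 nt. A single footprint was found at 249 of these coordinates, 2 footprints at 100, and more than 2 at 112. Those 112 coordinates held 547 of the footprints. The tables of eif5 (NCU00366) and cpc-1 (NCU04050), from the same libraries, hold 816 and 2852 footprints. The coordinate with the most footprints held 1.91% of the total in arg-2, against 2.57% in eif5 and 12.3% in cpc-1, so that no coordinate of arg-2 dominates its profile.

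**Figure D1:**
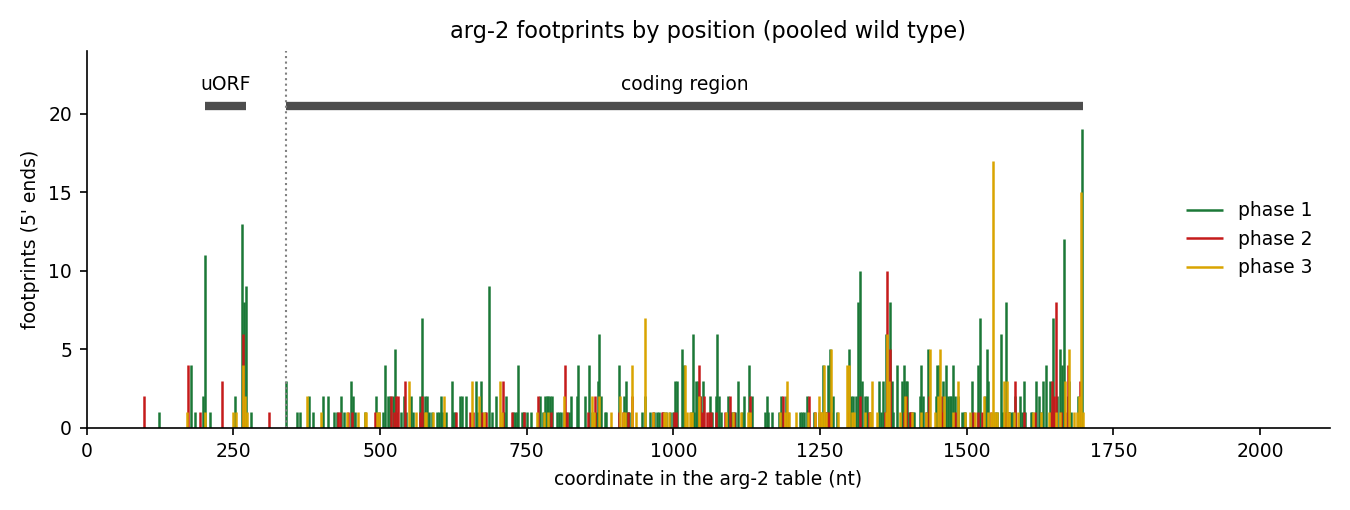
Footprints (5′ ends) at each coordinate of the arg-2 table, coloured by phase of the coordinate. Grey bars mark the uORF (202 to 271) and the coding region (340 to 1698) as placed here, and the dotted line marks the end of the leader at coordinate 340; no footprint lies beyond coordinate 1698.

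The profile of arg-2 fell into 5 stretches, and these were placed from the counts themselves, since no transcript sequence was used. The AAP of this fungus is known to have 24 residues. A ribosome at the start codon of such a uORF and a ribosome with its stop codon in the A site have 5′ ends 69 nt apart. Of the 271 pairs of leader coordinates at this distance, coordinates 202 and 271, with 11 and 9 footprints, had the most at both, and the next pair had no more than 3 at one of them. Coordinate 202 was therefore taken as the start position of the uORF and coordinate 271 as its stop position. With the offset of 12 nt, the P site at coordinate 202 begins at nucleotide 214, and with the 15-nt offset the A site at coordinate 271 begins at nucleotide 286. The main coding region was placed with the same offsets. Its start position is coordinate 340, the first after the uORF with more than 2 footprints, and its P site begins at nucleotide 352. Its stop position, coordinate 1696, is the coordinate with the most footprints in the table, and its A site begins at nucleotide 1711. The span from coordinate 340 to coordinate 1696 is 1356 nt, or 453 P-site codons. All 4 of these positions lie in phase 1 of the coordinates (phase 1 starts at coordinate 1 and repeats every 3 nt). Thus the uORF and the coding region as placed are in the same reading frame. Coordinates 202 and 271 had to share a phase, as 69 nt is a whole number of codons. Coordinates 340 and 1696 were picked by their counts, and phase 1 held 61.0% of all footprints. The start positions are 46 codons apart, and 63 nt separate the stop codon of the uORF from the start codon of the coding region. These limits were set after the counts were seen, the codons at them were not read, and the counts at the start and stop positions are given as a description.

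The leader to coordinate 340 held 84 of the 996 footprints, or 8.43% of them, and its density was 24.7 footprints per 100 nt (19.7 to 30.6). The rest held 912 footprints at 51.6 per 100 nt (48.3 to 55.0). The density of the leader was thus 0.479 times that of the rest (exact conditional interval, 0.379 to 0.600). The rest includes a long stretch at its 3′ end without footprints, and when it was ended at coordinate 1696 the ratio was 0.368. Within the leader the footprints were very unevenly placed, as 25 of its 340 coordinates had any and 61 of the 84 footprints lay in the 70 nt of the uORF.

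**Figure D2:**
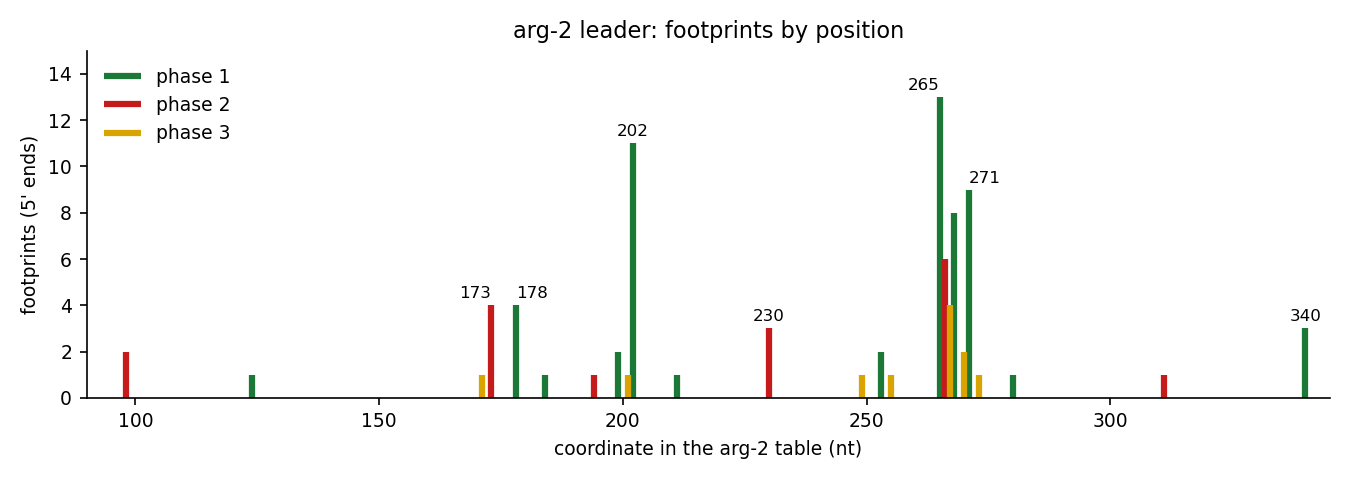
Footprints at each coordinate of the arg-2 leader, coloured by phase, from the first footprint at coordinate 98 to the limit of the leader at coordinate 340. The start position of the uORF (coordinate 202, 11 footprints) stands alone, whereas the end of the uORF is a cluster from coordinate 265 to coordinate 271.

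Upstream of the uORF, 17 footprints lay on 201 nt, which is 8.46 per 100 nt (4.93 to 13.5). This was 0.0971 times the density in the uORF (0.0531 to 0.168) and 0.126 times that in the coding region (0.0729 to 0.202). The first 97 nt of the table held none, and the first footprints were 2 at coordinate 98. Only 2 coordinates in this stretch had more than 2 footprints, coordinate 173 in phase 2 and coordinate 178 in phase 1, with 4 each. Their P sites begin at nucleotides 185 and 190. Upstream of the uORF, 8 footprints were in phase 1, 7 in phase 2 and 2 in phase 3, so that with so few footprints the share of phase 1, 47.1%, has an interval from 26.2 to 69.0%.

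The uORF held 61 footprints, or 87.1 per 100 nt (66.7 to 112), and its footprints lay mainly at its limits. The start position, coordinate 202, had 11 footprints (exact Poisson interval, 5.49 to 19.7), and coordinates 201 and 203 on either side of it had 1 and 0. From coordinate 204 to coordinate 264, the inner stretch of the uORF, there were 8 footprints on 61 nt. The largest count among these was 3 at coordinate 230, in phase 2. The last 7 nt of the uORF, from coordinate 265 to coordinate 271, held 42 footprints (30.3 to 56.8), more than in all the rest of the uORF. Within this cluster, coordinate 265 had 13 footprints, coordinate 266 had 6, coordinate 267 had 4, coordinate 268 had 8, coordinate 270 had 2 and coordinate 271 had 9. Coordinate 269 was empty. Coordinates 265, 268 and 271 are in phase 1 and together held 30 of the 42 footprints, so that footprints were found at 3 successive codons, the last of them with the stop codon in the A site. As codons, the first of the 3 codons held 23 footprints, the most of any codon in the uORF, and 2 of its 24 codons held over 50% of the footprints. Of the 24 codons, the last of which ends at coordinate 273, 8 had any footprint.

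Between the uORF and the coding region, from coordinate 272 to coordinate 339, only 3 footprints were found, at coordinates 273, 280 and 311. The density there, 4.41 per 100 nt (0.910 to 12.9), was 0.0655 times that of the coding region (0.0135 to 0.192). The start position of the coding region, coordinate 340, held 3 footprints (0.619 to 8.77). These are counted in the leader by its limit, although by the placement they belong to the main start codon. The next footprint followed after 17 empty nt, at coordinate 358. With 11 footprints at the start position of the uORF and 3 at that of the coding region, both intervals overlap.

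The stop positions of the uORF and the coding region held similar numbers of footprints in total, but these lay at different distances from the positions taken as stops. From 8 nt before to 2 nt after the stop position, the uORF had 43 footprints and the coding region had 44. In the coding region, 34 of these, or 77.3% (Wilson interval, 63.0 to 87.2%), were at the stop position or 1 nt before it, with 19 at coordinate 1696 and 15 at coordinate 1695. In the uORF it was 11 of 43, or 25.6% (14.9 to 40.2%). In the stretch from 2 to 6 nt before the stop position the uORF had 31 footprints, or 72.1% (57.3 to 83.3%), and the coding region had 8, or 18.2% (9.51 to 32.0%). The stop position of the coding region was chosen as the coordinate with the most footprints in the table, which by itself favours a high share there, whereas that of the uORF was set by its distance from coordinate 202. These shares are therefore a description. The stretches were also chosen after the counts were seen, and the difference was not tested.

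**Figure D3:**
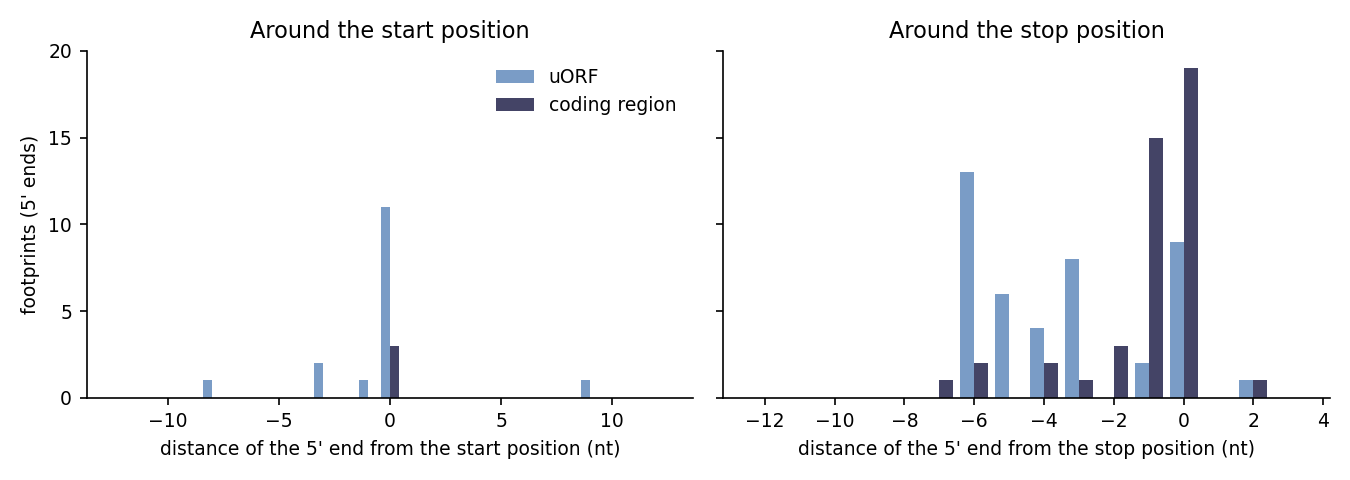
Footprints of the uORF and of the coding region, aligned on their start positions (coordinates 202 and 340, left) and on their stop positions (coordinates 271 and 1696, right); the horizontal axes give the distance of the 5′ end in nt. The coding region has 34 footprints at 0 and 1 nt before its stop position, whereas those of the uORF reach 6 nt upstream, where 13 were found.

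The coding region, from coordinate 340 to coordinate 1698, held 915 footprints, or 67.3 per 100 nt (63.0 to 71.8). The density of the uORF was 1.29 times this value, and the interval, 0.982 to 1.68, includes 1. This ratio depended on the limits of the uORF. With only its inner stretch, coordinates 204 to 264, and without the ends of the coding region, it was 0.203 (0.0876 to 0.403). That setting leaves out the whole cluster from coordinate 265 to coordinate 271. With the uORF shortened by 3 nt at each end the ratio was 0.905. The coding region was also covered more evenly than the uORF, although the limits of the uORF were placed at peaks, which by itself favours uneven counts there. Of its 453 codons, 313 had a footprint, or 69.1%, and 62 codons held over 50% of its footprints. The mean was 2.02 footprints per codon and the median 1, against a mean of 2.58 and a median of 0 in the 24 codons of the uORF. The variance of the footprints per codon was 3.96 times the mean in the coding region and 11.9 times the mean in the uORF. The longest run of codons without footprints had 6 codons in the coding region, from coordinate 1138 to coordinate 1155, and 5 codons in the uORF.

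Footprints were denser toward the 3′ end of the coding region. When it was divided into 3 parts of 151 codons, the 5′ part, from coordinate 340 to coordinate 792, held 192 footprints, the middle part 236 and the 3′ part, from coordinate 1246 to coordinate 1698, 487. The 3′ part had 2.54 times the density of the 5′ part (2.14 to 3.01), and the middle part had 1.23 times that density (1.01 to 1.49). These intervals take footprints as independent, and with the clustering given above they are too narrow. Without its last 9 nt, which hold the stop position, the 3′ part had 2.36 times the density of the 5′ part (1.99 to 2.81), an alternative chosen after seeing the counts. Coordinates with any footprint were also more frequent, with 25.4% of the 5′ part, 29.8% of the middle part and 41.3% of the 3′ part.

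In windows of 100 nt, the leader had 2 footprints from coordinate 1 to coordinate 100, 14 in the next window and 64 from coordinate 201 to coordinate 300, which holds the uORF. The window from 301 to 400, which spans the start of the coding region, held 12 (6.20 to 21.0). Among the 12 full windows within the coding region, the lowest held 30 footprints, from coordinate 401 to coordinate 500, and the median was 56. The highest of them held 117 footprints, from coordinate 1301 to coordinate 1400. The window of the uORF, with 64 footprints (49.3 to 81.7), was thus above that median, although its footprints lay on 15 coordinates, whereas the window from 1201 to 1300, also with 64 footprints, had them on 33. The window with the most footprints in the whole table was that from 1601 to 1700, with 135 (113 to 160), and it contains the stop position.

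**Figure D4:**
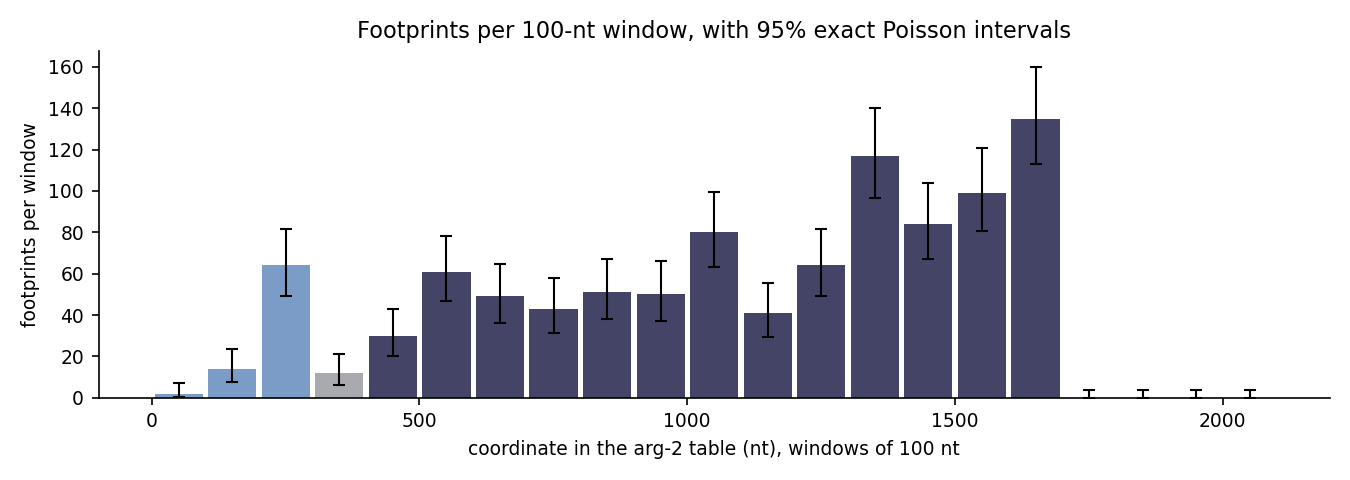
Footprints in each window of 100 nt along arg-2, with exact Poisson intervals as error bars; the windows of the leader are pale blue, the window that spans the start of the coding region is grey, and the others are dark. In the dark windows, counts range from 30 footprints at coordinates 401 to 500 to 135 at coordinates 1601 to 1700, until the empty windows beyond.

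Single coordinates with many footprints lay mostly in the 3′ part of the coding region. Of the 10 coordinates with the most footprints downstream of the leader, 9 were in the 3′ part. Coordinate 1696 had 19 footprints, coordinate 1545 had 17, coordinate 1695 had 15 and coordinate 1666 had 12. Coordinates 1318 and 1364 had 10 each, coordinates 1315, 1369 and 1567 had 8 each, and coordinate 685, the exception in the 5′ part, had 9. Coordinate 1652, also in the 3′ part, had 8 footprints as well and was left out of the 10 only because ties were taken in order of coordinate. Together these 10 coordinates held 116 footprints, or 12.7% of those downstream of the leader. In stretches of 9 nt, the end of the uORF (coordinates 265 to 273) and the end of the coding region (1688 to 1696) each held 43 footprints. The next stretch, from coordinate 1362 to coordinate 1370, held 39 footprints, which were spread over the phases with 14 in phase 1, 15 in phase 2 and 10 in phase 3. The stretch from coordinate 1313 to coordinate 1321 had 21 of its 23 footprints in phase 1.

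The phase of the footprints was taken as a guide to the reading frame. Reads of 28 to 31 nt were counted together, and a 5′ end shifted by 1 nt falls in another phase. Footprints in phase 2 or phase 3 therefore do not by themselves show movement in another frame. Phase 1 held 555 of the 915 footprints of the coding region, or 60.7% (Wilson interval, 57.5 to 63.8%), with 15.7% in phase 2 and 23.6% in phase 3. In the uORF it was 44 of 61, or 72.1% (59.8 to 81.8%), and 20 of the 44 lay at the 2 coordinates used to place it. For the leader as a whole the share of phase 1 was 66.7%, against 60.5% in the rest. This difference of 6.14 percentage points (Newcombe interval, -4.92 to 15.8) was not significant (Fisher's exact test, two-sided, Benjamini-Hochberg adjusted over 3 comparisons, p = 0.29). It had the opposite sign, -6.82 percentage points, when each coordinate with a footprint was counted once (Fisher's exact test, adjusted p = 0.54). The inner stretch, coordinates 204 to 264, had 3 of its 8 footprints in phase 1, 3 in phase 2 and 2 in phase 3. The frame of the uORF thus rests on the footprints at its ends.

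Along the coding region the share of phase 1 was 67.7% in the 5′ part (60.8 to 73.9%), 60.2% in the middle part (53.8 to 66.2%) and 58.1% in the 3′ part (53.7 to 62.4%). That of phase 3 was 16.1%, 21.6% and 27.5%. The intervals of phase 3 did not overlap between the 5′ part (11.6 to 22.0%) and the 3′ part (23.7 to 31.6%). Coordinates 1545 and 1695, with 17 and 15 footprints, are both in phase 3. Without them, an alternative chosen after seeing the counts, the share of phase 3 in the 3′ part was 22.4% (18.8 to 26.5%), and the intervals overlapped. Only phase 3 footprints of the 3′ part were left out, and none of the 5′ part, so this share could only fall. A minimum of 20 footprints was met by 14 of the 100-nt windows, of which 12 had more than 50% of their footprints in phase 1, and the shares ranged from 44.0 to 73.5%. Below 50% were the window from 901 to 1000, with 22 footprints in phase 1, 8 in phase 2 and 20 in phase 3, and that from 1201 to 1300, with 30, 8 and 26. In the former, 7 of the phase 3 footprints were at coordinate 951.

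**Figure D5:**
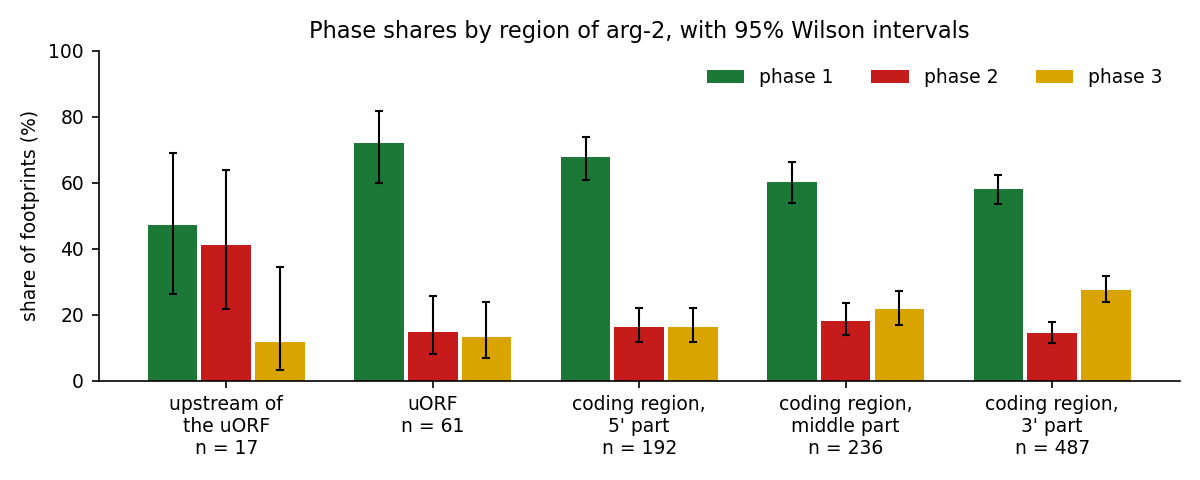
Share of footprints in each phase (%) for the stretch upstream of the uORF, the uORF and the 3 parts of the arg-2 coding region, with Wilson intervals as error bars and the number of footprints (n) below. Phase 1 leads in every group, but its interval overlaps that of phase 2 upstream of the uORF, where only 17 footprints were found.

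Compared with the other transcripts of the same libraries, each taken over its whole table and by its own most common phase, arg-2 had the higher share in 1 phase. The share was 61.0% in arg-2, 55.0% in eif5 and 46.2% in cpc-1. The difference of 6.02 percentage points from eif5 (1.46 to 10.6) was significant (Fisher's exact test, two-sided, adjusted p = 0.017), but not when the coordinate with the most footprints was left out of each table (3.81 percentage points, Fisher's exact test, adjusted p = 0.16) or when each coordinate was counted once (Fisher's exact test, adjusted p = 0.38). The difference of 14.8 percentage points from cpc-1 (11.2 to 18.3) was significant (Fisher's exact test, adjusted p = 2.5e-15), and it was 7.55 percentage points without the coordinate with the most footprints of each (Fisher's exact test, adjusted p = 0.00018). The table of cpc-1 covers uORFs that the study places in frames other than that of its main coding region. The uORF and the coding region of arg-2 share a phase as placed here, and the study reports uORFs in eif5 too. Whether the frames of uORFs bear on these differences was not tested. Footprints of 1 transcript cluster at single coordinates and are not independent, so these p-values describe the pooled libraries and are too small. For the same reason the intervals of shares and densities are too narrow.

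Coverage of arg-2 ended 2 nt after the stop position of the coding region as placed. The last footprint was 1 at coordinate 1698, the last coordinate with more than 2 footprints was 1696, and the following 411 nt, to coordinate 2109, held 0 footprints. The end of the coding region was set at the last footprint, so the count of 0 beyond it follows from that limit and was not tested. For scale only, at the density of the coding region, 67.3 per 100 nt, a stretch of this length would hold 277. The table of eif5 had 341 empty nt at its 3′ end and that of cpc-1 had 257.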

How the data were processed

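Per the labels and the study's methods, ribosome-protected fragments were prepared from 50 A260 units of lysate without rRNA depletion. After adapter removal (cutadapt 1.2.1), the authors kept reads from 28 to 31 nt long and aligned them to the sense strand of Neurospora transcripts with Bowtie 0.12.9, with 0 mismatches allowed in the first 25 nt and every allowed match reported. The authors deposited whole-number counts of 5′ ends for each coordinate, both replicates in 1 column, not normalized. A read that matches several transcripts can be counted on each of them. The genome build is not given in the sources used here. Empty counts were read as 0, and 9 columns that split the counts by position were not used.

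The RefSeq table (assembly NC12) served only to check names: each of the 3 identifiers was found, without a symbol for eif5. Reads carry no molecular identifiers, so intervals (Wilson, Newcombe, exact Poisson and exact conditional, 95%) cover counting error only. Phase shares were compared with Fisher's exact test, which was tested on simulated data with independent footprints. The simulations held no clustering of footprints, so they cannot show how the test behaves on clustered counts such as these. The leader limit, regions, positions and tests were chosen with earlier results of these data known. Named coordinates were the start and stop positions, leader coordinates with more than 2 footprints and the 10 with the most footprints downstream. Other coordinates were chosen after their values were seen. The depth was 996 footprints for arg-2, 816 for eif5 and 2852 for cpc-1. The alternatives tried stand in the closing section. Versions were 3.11.15 for Python, 2.4.6 for NumPy, 1.17.1 for SciPy and 3.10.9 for Matplotlib.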

Additional observations from a re-analysis of the deposited data

How the results depend on the processing

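No paired analysis was possible because the table pools the replicates of 1 condition, and leaving out a replicate was not possible either. Of 30 recomputed values, 17 stayed on their side of the threshold or inside the interval of the reported value, 10 moved, 2 became weaker and 1 reversed. With each coordinate counted once, the share of phase 1 in arg-2 was 54.4%, its difference between leader and rest reversed to -6.82 percentage points, its difference from eif5 was 3.87 percentage points and no longer significant (Fisher's exact test, adjusted p = 0.38), and the ratio of leader to rest, in coordinates with footprints per nt, was 0.298. Among coordinates with more than 2 footprints the share of phase 1 was 66.7%. Without the coordinate with the most footprints of each table, the difference from eif5 was 3.81 percentage points and no longer significant (Fisher's exact test, adjusted p = 0.16). With the rest ended at coordinate 1696, the ratio of leader to rest was 0.368. With only the inner stretch of the uORF, and without the ends of the coding region, the ratio of uORF to coding region was 0.203. It was 0.905 with the uORF limits 3 nt inward. With 3 nt to each side in place of 1 nt, the stop peak of the uORF held 20 footprints in place of 11. The highest window held 112 footprints when windows started 50 nt later, and in windows of 50 nt it reached 198 per 100 nt. The next comparisons were added once the counts had been seen. Without coordinates 1545 and 1695, both in phase 3, the share of phase 3 in the 3′ part of the coding region was 22.4%, a change that could only lower it. The uORF against the coding region gave a difference of 11.5 percentage points in the share of phase 1 (Fisher's exact test, adjusted p = 0.079). Of the 44 uORF footprints in phase 1, 20 lay at the 2 coordinates used to place it. That test therefore cannot compare the 2 shares, and no conclusion is drawn from it. Depth limits the stretches upstream of the uORF and between the uORF and the coding region, with 17 and 3 footprints.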
